A study of Mus musculus with 25 samples.

Results

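The Dlk1-Dio3 domain is a stretch of mouse chromosome 12 in which genes are expressed from only 1 of the parental copies. Its members were taken as all transcript clusters of the array that carried a single gene symbol and whose gene lay from Dlk1 to Dio3, both included, in the gene order of the GRCm38.p6 assembly. This gave 42 of the 28940 clusters tested, 1 for each of 42 genes: the protein-coding genes Dlk1 and Dio3, the long non-coding RNA genes Meg3 and Rian, 2 small nucleolar RNA (snoRNA) genes and 36 microRNA genes. The assembly lists 103 genes in the interval, 61 of them microRNA and 19 snoRNA genes. A further 7 clusters carried symbols of several domain genes at once. Rtl1 and Mirg were measured only by such shared clusters and are therefore described apart from the 42. The domain was taken up because differences between mutant and wild type had been seen in it, so those differences are given as a description.

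RNA came from the mammillary neuroepithelium, the tissue from which the mammillary body of the caudal hypothalamus forms, of C57BL/6 mouse embryos at E10.5. The 13 mutant samples (KO) were Lhx5 mutants and the 12 wild-type samples (WT) carried the normal gene. According to the methods of the study the mutants were homozygous for a floxed Lhx5 allele that had not been recombined by Cre (Lhx5fl/fl), a hypomorph in which the exons between the loxP sites are still present. Each sample was hybridised to 1 Affymetrix Mouse Gene 1.1 ST array and is labelled as a biological replicate.

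Levels are given as log2 values after robust multiarray averaging (RMA), on which a difference of 1 is a doubling. The means of KO replicates 1 to 10 and of KO replicates 11 to 13 were the same to a median of 1.5e-06 over the 42 domain clusters and of 1.33e-06 over 35542 probe sets. KO replicates 1 to 10 therefore add nothing to the mean of the mutants, and each difference between KO and WT rests on 3 KO and 12 WT arrays. No step that would make these means equal is given in the sources used here. The spread within KO replicates 1 to 10 enters the correlations below. Pooled with that of the other arrays, it also enters each SE, interval and p-value of the fit. Whether such a step also rescaled this spread was not tested. The median SD over the 42 domain clusters was 0.197 in KO replicates 11 to 13, 0.234 in KO replicates 1 to 10 and 0.247 in WT, and over all clusters tested it was 0.119 in KO replicates 11 to 13, 0.149 in KO replicates 1 to 10 and 0.143 in WT. Array medians lay between 4.64 and 4.76. Lhx5 itself read 7.82 to 8.11 (median 7.84) in KO replicates 11 to 13, 7.43 to 8.60 (median 7.96) in KO replicates 1 to 10, and 7.67 to 8.38 (median 7.89) in WT, a difference of -0.04 ± 0.17 (SE). Because the floxed exons remain in this allele, its level does not check the labels. All 10 neuroepithelial markers listed, among them Foxb1, Sim1, Otp and Nkx2-1, were at or above the median level of all clusters.

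In mice, Dlk1, Rtl1 and Dio3 are expressed mainly from the paternal chromosome, and Meg3, Rian and Mirg with their microRNAs and snoRNAs from the maternal one. The choice is set by DNA methylation of a control region between Dlk1 and Meg3. The non-coding genes lie on the same strand, and the microRNAs and snoRNAs are cut from long transcripts that run through them. DLK1 is a membrane protein related to the Notch ligands, and DIO3 is the deiodinase that inactivates thyroid hormone. The array measures the RNA that holds a microRNA gene's stretch, and does not tell primary transcript, hairpin and mature microRNA apart. In tissue RNA, fewer cells that express a gene and less of its RNA per cell cannot be told apart either.

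Mature sequences of all 36 microRNA genes were found in RefSeq (68 sequences, GRCm38.p6). Shown first are sequences of the genes described one by one below, namely the 6 whose KO replicates 11 to 13 all lay below every WT array and, of the others with large differences, Mir679 and Mir382. Capitals mark the seed, bases 2 to 8 from the 5′ end, which pairs with target RNAs.
mmu-miR-323-3p: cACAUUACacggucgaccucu
mmu-miR-323-5p: aGGUGGUCcguggcgcguucgc
mmu-miR-300-3p: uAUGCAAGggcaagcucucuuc
mmu-miR-300-5p: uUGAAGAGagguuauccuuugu
mmu-miR-377-3p: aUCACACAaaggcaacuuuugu
mmu-miR-679-5p: gGACUGUGaggugacucuuggu
mmu-miR-382-5p: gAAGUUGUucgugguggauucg
mmu-miR-134-5p: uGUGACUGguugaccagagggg
mmu-miR-665-3p: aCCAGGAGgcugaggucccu
mmu-miR-329-3p: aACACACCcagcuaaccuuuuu

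The domain's microRNAs were diverse in sequence. Seeds of arms that were not found could not be compared. The 68 mature sequences held 66 different seeds, and among these only 2 were shared between member genes. The first, AUGUAAC, belonged to neighbours Mir379 and Mir411, and the other, UGGAUAU, to neighbours Mir376c and Mir376b. Another pair, Mir300 and Mir381, is shown because its 3p sequences are near copies with different seeds and because the 2 genes had unlike differences between KO and WT.
mmu-miR-379-3p: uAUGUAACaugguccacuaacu
mmu-miR-411-3p: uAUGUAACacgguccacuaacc
mmu-miR-376b-5p: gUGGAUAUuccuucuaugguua
mmu-miR-376c-5p: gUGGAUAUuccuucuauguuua
mmu-miR-381-3p: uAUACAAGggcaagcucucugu
From miR-300-3p to miR-381-3p, 19 of 22 bases were the same, with the substitutions G4A, U21G and C22U counted from the 5′ end. The miR-376b-5p and miR-376c-5p sequences differed by G19U alone. For such close copies the array signal of 1 gene may hold RNA of another.

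The promoter of Meg3 is shown as the start of the long non-coding transcript that most of the members lie along or downstream of. RefSeq (GRCm38.p6) gives for chr12:109540746-109541045, plus strand, from 250 bases before to 50 after the start, with capitals for a match to TGCCGC or its reverse complement, a motif bound by the imprinting factor ZFP57 when methylated:
Meg3 promoter: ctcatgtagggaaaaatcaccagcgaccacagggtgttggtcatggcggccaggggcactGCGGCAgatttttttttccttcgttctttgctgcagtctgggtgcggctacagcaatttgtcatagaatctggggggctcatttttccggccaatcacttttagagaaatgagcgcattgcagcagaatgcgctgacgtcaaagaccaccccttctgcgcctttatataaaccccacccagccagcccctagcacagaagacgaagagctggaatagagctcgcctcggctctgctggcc
This window held 1 match to TGCCGC on either strand, and 11.6% of all 32851 promoter windows of the same length held at least 1. The windows of Dlk1, Rian and Dio3 and a second one of Meg3 held none. The letters TAATTA, a core to which LIM-homeodomain proteins such as LHX5 bind, occurred in none of these 5 windows and in 5.29% of all windows. A match of letters is not a binding site, and its absence here says nothing of regulation from elsewhere.

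The 42 clusters all had a lower mean in KO than in WT, also with quantile normalization repeated or arrays centred on their medians, and 40 to 42 of them did so on leaving out single arrays. The exceptions were Mir666 without KO replicate 11, KO replicate 12 or WT replicate 2, Mir299a without KO replicate 12 and Mir376c without WT replicate 2, whose differences then lay between 0.00041 and 0.09. The differences ran from -0.94 to -0.01 with a median of -0.34, and over all clusters tested 48.2% were below 0, with a median of 0.01. This share depended on level. At or above the median level 8645 of 14470 clusters were below 0, and below that level 5312 of 14470 were. No domain cluster was called lower or higher in the fit with a term for KO replicates 1 to 10 (limma, adjusted p below 0.05), beside 0.0104% of all clusters called lower and 0.0138% called higher. The lowest adjusted p among the members was 0.0546, for Mir323 and Mir300. At an unadjusted p below 0.05, 25 of the 42 were lower and 0 higher, beside 4.15% and 6.2% of all clusters. With genotype as the only term, which counts KO replicates 1 to 10 as independent arrays, 29 of 42 were called lower and 0 higher, beside 6.99% and 9.68% of all clusters. The study lists Meg3, Rtl1 and, as Rian, the transcript AF357355 among genes lower in the mutant. Its thresholds were a fold change and a p-value for which no adjustment is stated, unlike the call rule used here. The domain was chosen on the contrast between KO and WT, and nothing is read from the counts above.

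The outcome of the call rule depended on single arrays. Without KO replicate 13 the lowest adjusted p of a member was 0.41. In a limma fit to KO replicates 11 to 13 and WT arrays alone, the lowest adjusted p of a member was 0.0748, and 0 members were called. Calls appeared on leaving out any of 6 other arrays: Mir323 and Mir300 without KO replicate 3 or KO replicate 12, Mir323 without KO replicate 7, Mir300 without KO replicate 8, Mir679 and Mir300 without KO replicate 11, and Mir323, Mir679, Mir300, Mir382 and Mir377 without WT replicate 10.

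Meg3, the maternally expressed long non-coding RNA at the head of the non-coding genes, read 9.49, 9.19 and 9.09 in KO replicates 11 to 13. It ran from 8.83 to 9.77 (median 9.12) in KO replicates 1 to 10 and from 9.34 to 10.3 (median 9.88) in WT. KO replicates 12 and 13 lay below every WT array and KO replicate 11 within the WT range, whose lowest array was WT replicate 10. The difference was -0.61 ± 0.17 (SE), or 1.52-fold lower in KO, with a 95% interval from -0.96 to -0.25.

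Rian, the other long non-coding gene among the members and host of many box C/D snoRNAs, read 6.26, 5.51 and 5.81 in KO replicates 11 to 13. It ran from 5.34 to 6.36 (median 5.88) in KO replicates 1 to 10 and from 5.68 to 7.31 (median 6.55) in WT. KO replicate 12 alone of the 3 lay below every WT array, and the difference was -0.69 ± 0.23, with an interval from -1.16 to -0.21.

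Dlk1 read 11, 10.7 and 10.42 in KO replicates 11 to 13, from 9.89 to 11.18 (median 10.73) in KO replicates 1 to 10, and from 10.06 to 11.55 (median 11.25) in WT. None of the 3 lay below every WT array, because WT replicate 10 at 10.06 and WT replicate 12 at 10.59 were themselves low. The difference of -0.43 ± 0.24 had an interval from -0.92 to 0.06. Dio3, at the other end of the domain, was a dim cluster with 3.33, 3.35 and 3.05 in KO replicates 11 to 13, 2.90 to 3.93 (median 3.20) in KO replicates 1 to 10 and 3.14 to 3.83 (median 3.38) in WT. Its ranges overlapped, and its difference was -0.16 ± 0.15, with an interval from -0.46 to 0.14, and -0.06 without KO replicate 13.

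The snoRNA cluster AF357355 read 7.09, 6.52 and 6.51 in KO replicates 11 to 13, from 6.27 to 7.27 (median 6.66) in KO replicates 1 to 10, and from 6.64 to 7.99 (median 7.44) in WT. KO replicates 12 and 13 lay below every WT array. The difference was -0.74 ± 0.20. The other snoRNA cluster, AF357341, was dim and its groups overlapped fully, at 3.26, 3.21 and 3.20 in KO replicates 11 to 13 and 2.83 to 3.76 (median 3.26) in WT, a difference of -0.06 ± 0.14, which was -0.02 without WT replicate 1 and -0.10 without WT replicate 10.

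**Figure D1:**
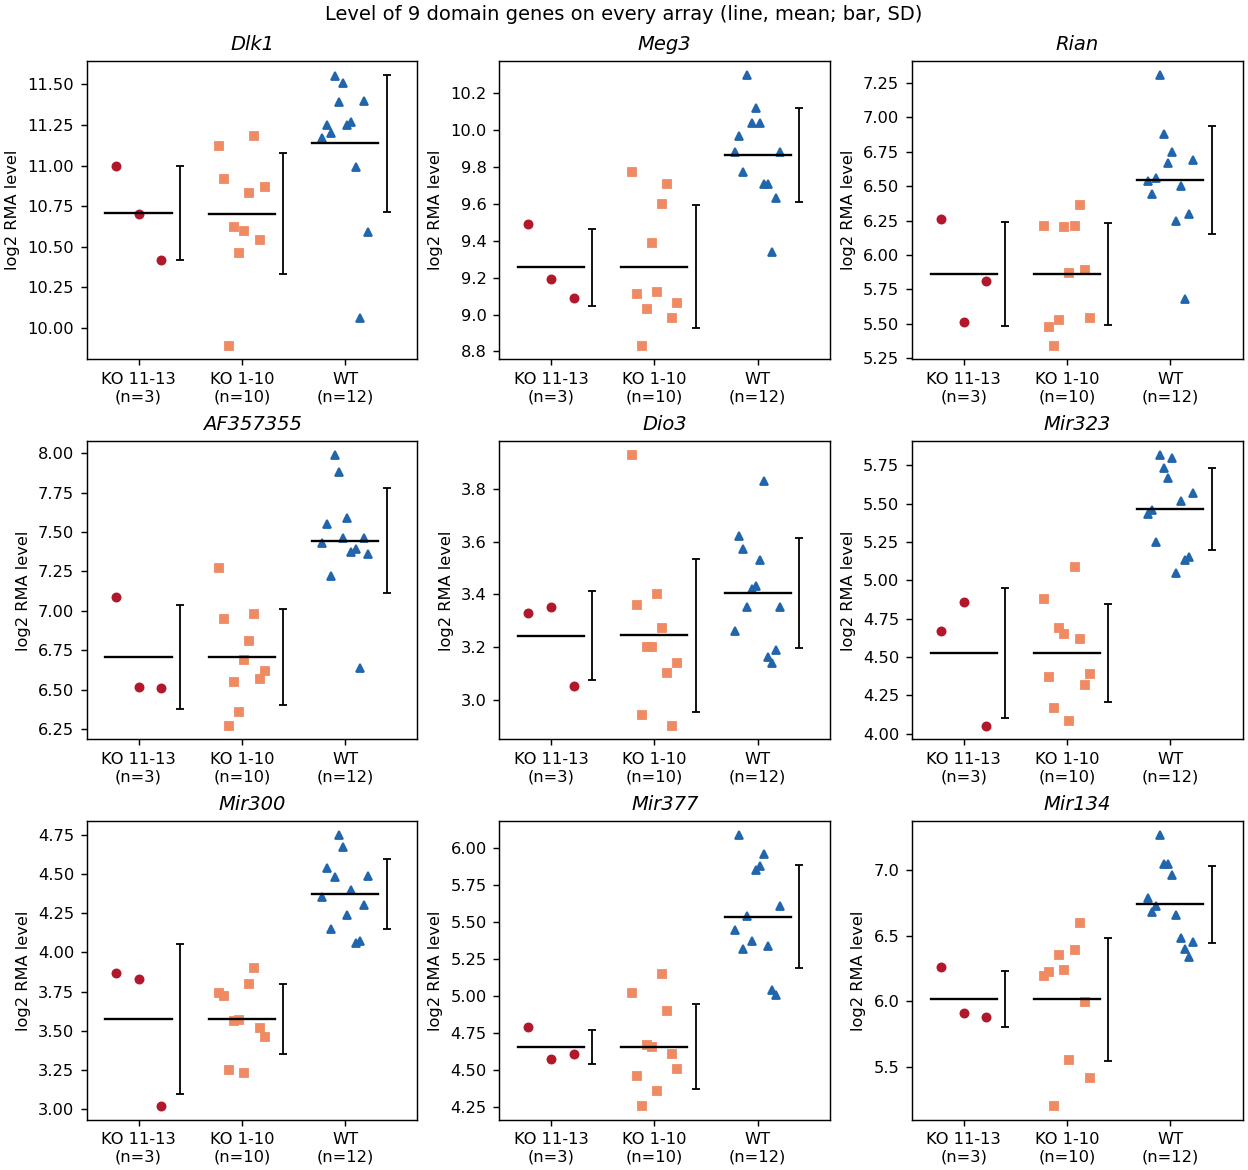
Log2 RMA level (y axis) of 9 domain genes on each array, for KO replicates 11 to 13 (circles, 3 arrays), KO replicates 1 to 10 (squares, 10 arrays) and WT (triangles, 12 arrays), with the mean as a line and the SD as a bar. All KO replicates 11 to 13 sit below all WT arrays for Mir323, Mir300, Mir377 and Mir134 but not for Dlk1, Meg3, Rian, AF357355 or Dio3, and the means of both KO sets are the same.

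Among the microRNA genes all 36 differences were below 0, with a median of -0.32. Mir323 had the largest. It read 4.67, 4.86 and 4.05 in KO replicates 11 to 13, from 4.08 to 5.09 (median 4.5) in KO replicates 1 to 10, and from 5.05 to 5.82 (median 5.49) in WT. All 3 of KO replicates 11 to 13 lay below every WT array. So did 9 of KO replicates 1 to 10, but these share the mean of KO replicates 11 to 13 and are no separate support. The difference was -0.94 ± 0.18, or 1.92-fold lower in KO, with an interval from -1.32 to -0.56.

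For Mir300 all of KO replicates 11 to 13 lay below every WT array. It read 3.87, 3.83 and 3.02 in KO replicates 11 to 13, from 3.23 to 3.90 (median 3.56) in KO replicates 1 to 10, and from 4.06 to 4.75 (median 4.37) in WT. Its difference was -0.80 ± 0.16, or 1.74-fold lower in KO, and -0.52 without KO replicate 13, the lowest of the 3. Mir381, whose 3p sequence is nearly that of miR-300-3p, differed by -0.13 ± 0.07, and by -0.06 without KO replicate 11 and -0.21 without KO replicate 13. It read 2.78, 2.90 and 3.09 in KO replicates 11 to 13 and 2.90 to 3.14 in WT, near the bottom of the scale.

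Mir377 read 4.79, 4.58 and 4.61 in KO replicates 11 to 13, from 4.26 to 5.15 (median 4.63) in KO replicates 1 to 10, and from 5.01 to 6.09 (median 5.50) in WT, a difference of -0.88 ± 0.19. Mir134, known in rodent neurons for limiting dendritic spine size, read 6.26, 5.91 and 5.88 in KO replicates 11 to 13, from 5.20 to 6.60 (median 6.21) in KO replicates 1 to 10, and from 6.34 to 7.27 (median 6.70) in WT, a difference of -0.73 ± 0.22. In both, all of KO replicates 11 to 13 lay below the WT range. The same held for Mir665, at 6.26, 5.91 and 5.97 against 6.31 to 7.44 in WT, and for Mir329, at 5.73, 5.63 and 5.49 against 5.74 to 6.26 in WT. Their margins were narrow, and the differences were -0.69 ± 0.24 for Mir665 and -0.38 ± 0.12 for Mir329. In all, 6 of the 42 clusters, every one a microRNA gene, had all of KO replicates 11 to 13 below every WT array, beside 0.619% of all clusters, and 0 had all of them above, beside 0.536%. Of the 270 microRNA clusters outside the domain, 6 had all of KO replicates 11 to 13 below every WT array and 0 above. Their median difference was -0.03, with 164 below 0 and 106 above, beside 48.2% of all clusters below 0. At an unadjusted p below 0.05, 28 were lower and 9 higher, beside 4.15% and 6.2% of all clusters. Of these 270, 39 were at or above the median level of all clusters, with a median of -0.11, 8 lower and 2 higher. The 13 domain microRNA clusters at that level had a median of -0.57, with 11 lower and 0 higher. Of all 14470 clusters at that level, 904 were lower and 481 higher by the same threshold, with a median of -0.02.

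Mir679 and Mir382 had differences of like size without that separation. Mir679 read 5.86, 5.39 and 4.78 in KO replicates 11 to 13 and 5.78 to 6.57 (median 6.22) in WT, a difference of -0.88 ± 0.18, and KO replicate 11 lay inside the WT range. Mir382 read 4.63, 4.15 and 4.15 in KO replicates 11 to 13 and 4.61 to 5.60 (median 5.07) in WT, a difference of -0.77 ± 0.16, and again KO replicate 11 was the array inside the WT range. Of KO replicates 1 to 10, 9 lay below every WT array in each of these genes, which is no separate support because of the shared mean. Mir540 was close in size at -0.73 ± 0.29 but less sharply set, since only KO replicate 13, at 5.47, lay below every WT array.

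The smallest differences belonged to dim clusters. Mir376c read 2.10, 2.09 and 2.14 in KO replicates 11 to 13 and 2.01 to 2.48 in WT, a difference of -0.01 ± 0.06. Mir666 differed by -0.02 ± 0.15, Mir494 by -0.07 ± 0.10, Mir154 by -0.10 ± 0.12 and Mir376b by -0.10 ± 0.08. Across the 42 clusters, which share transcripts and are not independent, the difference and the mean level had a Pearson r of -0.56 and a Spearman rho of -0.71, and over all 28940 clusters these were -0.17 and -0.23. The 17 members at or above the median level of all clusters had a median difference of -0.61, and the 25 below it one of -0.23. Over all clusters tested the same medians were -0.02 and 0.04. A cluster near the bottom of the scale can understate a difference, and the part of this was not tested.

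The contrast on which the domain was chosen is given here array by array, as a description. KO replicates 1 to 10 share the mean of KO replicates 11 to 13, so their position below WT is no separate support. Averaged over the 42 clusters, the distance from the WT mean was -0.25, -0.45 and -0.49 in KO replicates 11, 12 and 13, from -0.66 to -0.17 (median -0.43) in KO replicates 1 to 10, and from -0.33 to 0.28 (median 0.01) in WT. Of the WT arrays, replicate 10 alone, at -0.33, reached below KO replicate 11, and the next lowest was replicate 11 at -0.15. The number of clusters below their WT mean was 39 to 41 of 42 in KO replicates 11 to 13, 32 to 42 in KO replicates 1 to 10, and 7 to 38 in WT.

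**Figure D2:**
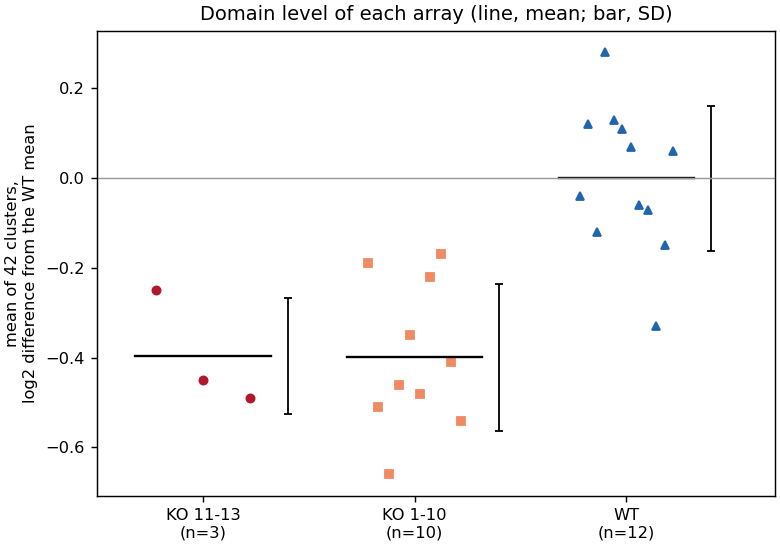
Mean over the 42 domain clusters of the log2 difference from the WT mean (y axis) on each array of KO replicates 11 to 13 (circles), KO replicates 1 to 10 (squares) and WT (triangles), with the mean as a line and the SD as a bar. KO replicates 11 to 13 lie between -0.49 and -0.25 and WT arrays between -0.33 and 0.28, so the sets overlap through WT replicate 10.

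In gene order, differences of 0.4 or more below 0 lay all along the non-coding part and alternated with small ones. The 6 microRNA genes from Mir673 to Mir370 had a median difference of -0.49 and the 30 from Mir379 to Mir369 one of -0.32. Order in the domain and difference had a Pearson r of 0.13 over the 36 microRNA genes. Near neighbours could differ widely, as did Mir376a at -0.16 ± 0.06 beside Mir300 at -0.80 ± 0.16, and Mir494 at -0.07 ± 0.10 beside Mir679 at -0.88 ± 0.18. Mir376a and Mir494 were dim clusters, with WT medians of 2.36 and 3.36. Near the bottom of the scale a difference can be understated, so these contrasts are not read as an effect of place in the domain. The part of level in them was not tested. Levels of different probe sets are not amounts of RNA that can be set against each other, so only differences are compared here.

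The 7 clusters shared by several domain genes had differences from -0.69 to -0.05, with a median of -0.53. All 7 were below 0 and none was called. Those that name Rtl1, a gag-like gene derived from a retroelement, also name microRNAs that lie antisense to it, and some of them the gene 6430411K18Rik. The cluster naming Mirg also names Mir410. No level is therefore given for Rtl1, 6430411K18Rik or Mirg alone.

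Most genes just outside the domain showed smaller differences. Over the 20 genes on either side the median was -0.05, with 26 below 0 and 14 above, beside 48.2% of all clusters below 0. At an unadjusted p below 0.05, 4 of the 40 were lower and 1 higher, beside 4.15% and 6.2% of all clusters. On the Dlk1 side 16 of 20 were below 0 (median -0.07), 3 of them lower at that threshold. On the Dio3 side 10 of 20 were below 0 (median -0.01), 1 of them lower. Beyond the nearest genes, Mir342 on the Dlk1 side differed by -0.36 ± 0.17. On the Dlk1 side, the nearest gene Begain, which encodes a protein of the neuronal postsynaptic density, differed by -0.41 ± 0.18, Wdr25 by -0.07 ± 0.13, Wars by -0.02 ± 0.08, Slc25a47 by 0.04 ± 0.09 and Mir345 by -0.33 ± 0.13. On the Dio3 side, Ppp2r5c differed by -0.08 ± 0.05, Dync1h1 by 0.02 ± 0.14, 1700001K19Rik by 0.12 ± 0.10, Hsp90aa1 by -0.08 ± 0.07 and Wdr20 by -0.15 ± 0.09. None of these 10 genes was called. Begain and Mir345 had differences of the size of many domain members, and the other 8 did not exceed 0.15 in size.

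**Figure D3:**
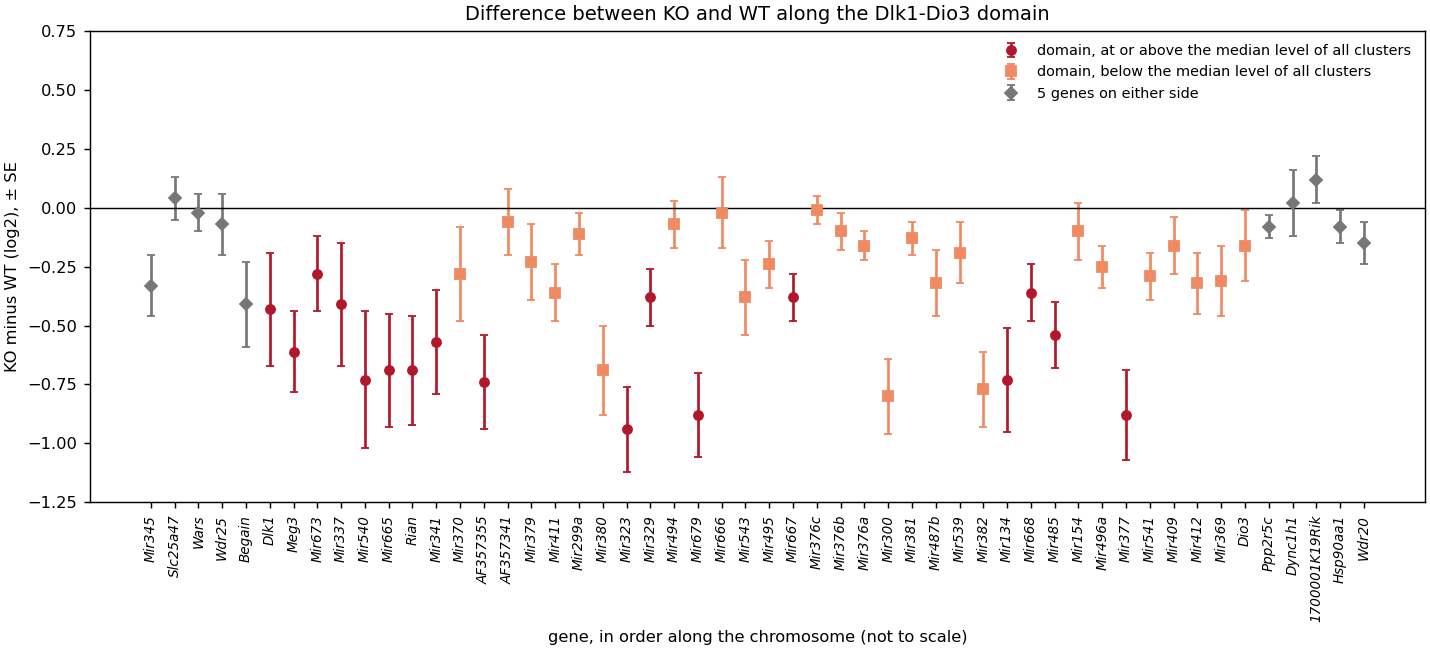
Difference between KO and WT in log2 (y axis, ± SE) for 42 domain genes and 5 genes on either side, in gene order and not to scale, with circles for members at or above the median level of all clusters, squares for members below it and diamonds for the neighbours. All 42 members lie below 0, from -0.94 for Mir323 to -0.01 for Mir376c, and 8 of the 10 neighbours are within 0.15 of 0.

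Spread among arrays of 1 group does not enter the difference between groups, and it showed the domain's genes moving together. Over pairs of the 42 clusters the median Pearson r was 0.34 in KO replicates 1 to 10 and 0.39 in WT, with 83.4% and 89.3% of the 861 pairs above 0. Over all pairs of single-symbol clusters the median was 0.0 in both sets. Over pairs of the 40 neighbouring genes it was 0.04 in KO replicates 1 to 10 and 0.07 in WT, and over pairs of the 270 microRNA clusters outside the domain it was 0.05 in KO replicates 1 to 10 and 0.03 in WT. Among the 17 brighter members the median r was 0.58 in KO replicates 1 to 10 and 0.67 in WT, and all of their 136 pairs were above 0 in both sets. Pairs of clusters share arrays and transcripts, so these values are a description. With arrays centred on their medians the value in KO replicates 1 to 10 was 0.21, and without WT replicate 10 the value in WT was 0.31.

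Meg3 and Rian were the most tightly linked pair tested. In KO replicates 1 to 10 their Pearson r was 0.88 (permutation p = 0.00197, adjusted p = 0.0165) and their Spearman rho 0.83 (permutation p = 0.00483, adjusted p = 0.0507). In WT, r was 0.93 (permutation p = 8e-05, adjusted p = 0.0021) and rho 0.84 (permutation p = 0.0012, adjusted p = 0.0252). Without the 2 arrays farthest from the median of Meg3, r was 0.83 in KO replicates 1 to 10 and 0.77 in WT. Without KO replicate 3, r in KO replicates 1 to 10 was 0.85 and no longer passed the adjusted threshold. All tests were two-sided and adjusted over 42 relations, namely 3 gene pairs and 18 pairings with marker lists in each of the 2 sets of arrays.

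The links of Meg3 with the paternally expressed genes were looser. With Dlk1, r was 0.71 in KO replicates 1 to 10 (permutation p = 0.0161, adjusted p = 0.0844) and 0.72 in WT (permutation p = 0.00969, adjusted p = 0.0581), and rho was 0.65 and 0.58 in those sets. Without the 2 arrays farthest from the median of Meg3, r was 0.47 in KO replicates 1 to 10 and 0.24 in WT, so in WT the relation rested on those arrays. It passed the adjusted threshold without KO replicate 5 (r = 0.77) in KO replicates 1 to 10, and without WT replicate 11 (r = 0.82) or WT replicate 12 (r = 0.79) in WT. With Dio3, r was 0.58 in KO replicates 1 to 10 (permutation p = 0.0665, adjusted p = 0.187) and 0.29 in WT (permutation p = 0.351, adjusted p = 0.574), and rho was 0.60 and 0.37. Correlations of Meg3 with Mirg and Rtl1 had been planned and could not be computed, since neither has a cluster of its own.

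**Figure D4:**
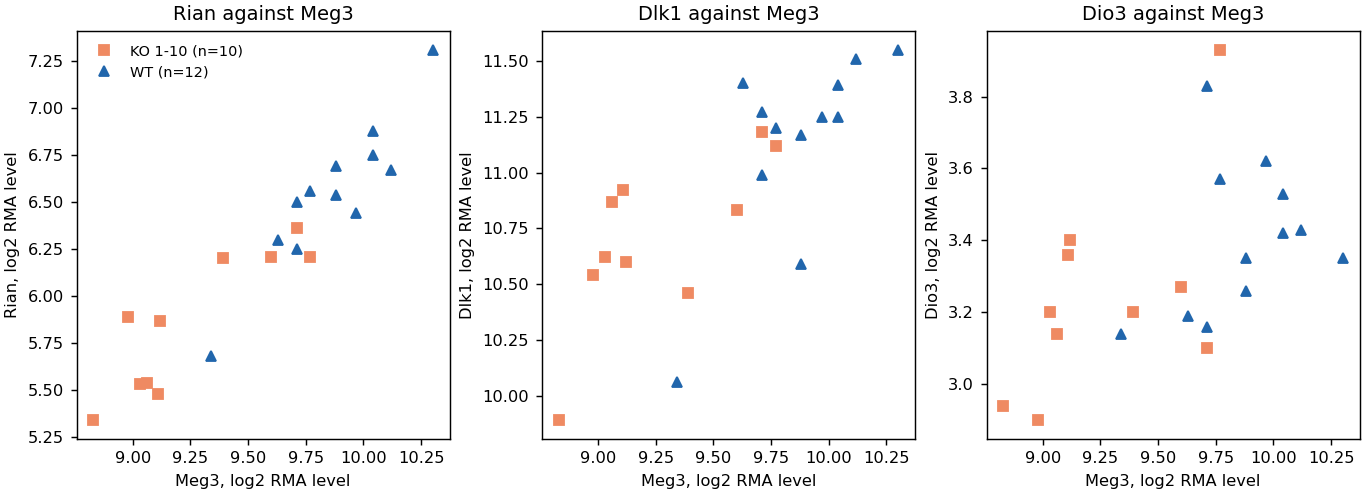
Log2 RMA level of Rian, Dlk1 and Dio3 (y axes) against that of Meg3 (x axes), each point 1 array of KO replicates 1 to 10 (squares) or WT (triangles). The points of Rian follow those of Meg3 in both sets (r = 0.88 and r = 0.93 in KO replicates 1 to 10 and in WT), while those of Dio3 scatter (r = 0.58 and r = 0.29).

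Over the 41 other members the correlation with Meg3 had a median of 0.64 in KO replicates 1 to 10, from -0.32 to 0.88, and of 0.67 in WT, from -0.10 to 0.93. It was above 0.5 for 26 members in KO replicates 1 to 10, for 30 in WT and for 23 in both. Over all clusters outside the domain the median correlation with Meg3 was 0.04 in KO replicates 1 to 10 and -0.03 in WT. Among the members with high values in both sets were Mir679 (0.85 in KO replicates 1 to 10 and 0.84 in WT), Mir323 (0.76 and 0.84), Mir341 (0.80 and 0.73) and the snoRNA AF357355 (0.71 and 0.87). The Mir376 genes had low values, with 0.25, -0.32 and -0.26 in KO replicates 1 to 10 and 0.14, 0.08 and 0.21 in WT for Mir376c, Mir376b and Mir376a. Members with high values in WT tended to have high values in KO replicates 1 to 10 (r = 0.55 over the 41 members). The correlation with Meg3 was also higher in brighter clusters (r = 0.54 with mean level in KO replicates 1 to 10 and r = 0.57 in WT), so low values at the bottom of the scale do not show that a gene moved apart from Meg3. Mir541 was a case of unlike values in the 2 sets, with 0.71 in KO replicates 1 to 10 and -0.10 in WT. That difference was not tested.

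**Figure D5:**
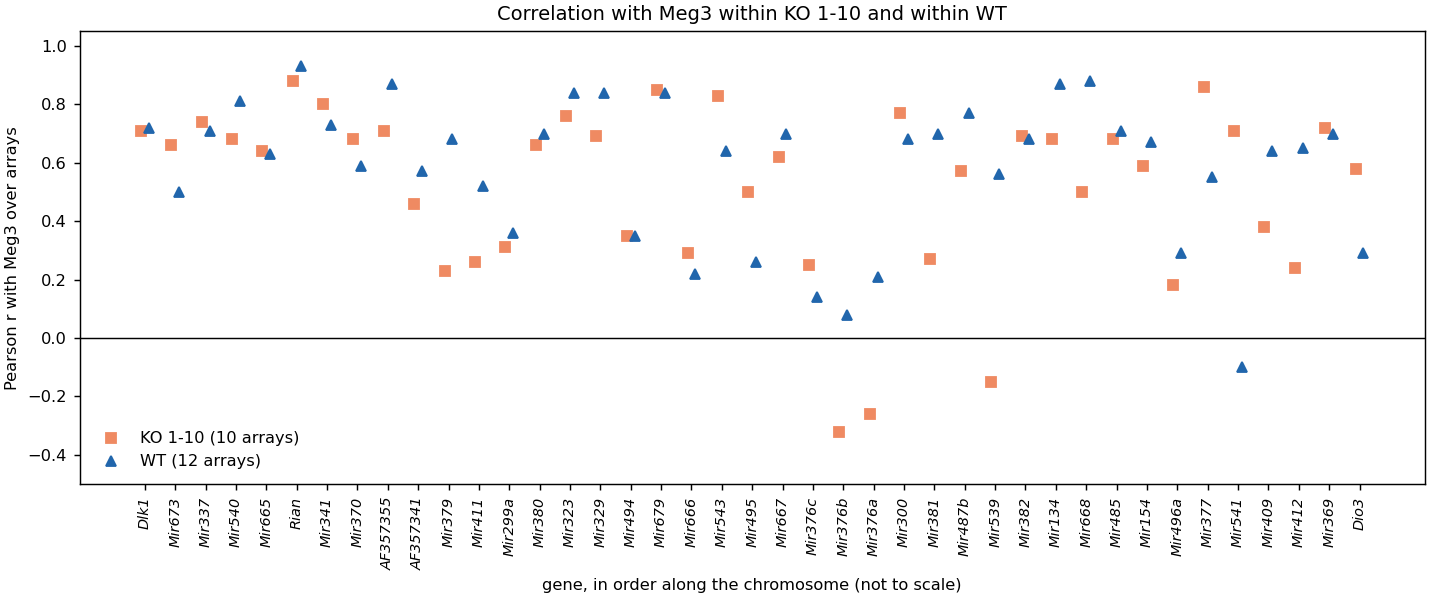
Pearson r with Meg3 over arrays (y axis) for the 41 other domain members in gene order, not to scale, within KO replicates 1 to 10 (squares, 10 arrays) and within WT (triangles, 12 arrays). Rian has the highest value in both sets, and the Mir376 genes lie between -0.32 and 0.25.

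Over all 25 arrays, after the means of KO replicates 1 to 10, KO replicates 11 to 13 and WT had been removed, the 5 genes most like Meg3 among 18814 named genes were Nol4 (r = 0.89), Rian (r = 0.88), Otp (r = 0.88), Fbrsl1 (r = 0.87) and Zfp532 (r = 0.87). Of these only Rian lies in the domain. Otp encodes a homeodomain protein required for neuroendocrine neurons of the hypothalamus. The best 100 genes held 11 domain genes and the best 1000 held 24 of the 41.

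Some of the marker lists moved with the domain. The neuroepithelial list averaged -0.50 to -0.26 from its WT mean in KO replicates 11 to 13, -0.71 to -0.07 in KO replicates 1 to 10 and -0.43 to 0.23 in WT, and 9 of its 10 genes had differences below 0 (median -0.18, 0 called). Within WT, Meg3 correlated with this list at r = 0.83 (permutation p = 0.00117, adjusted p = 0.0123, rho = 0.79), and at r = 0.62 without the 2 farthest arrays. Within KO replicates 1 to 10 the value was r = 0.74 (permutation p = 0.0187, adjusted p = 0.0872, rho = 0.70). Dlk1 correlated with the list at r = 0.66 in KO replicates 1 to 10 (permutation p = 0.0322, adjusted p = 0.123) and at r = 0.87 in WT (permutation p = 0.00065, adjusted p = 0.0091). In WT its rho of 0.62 had an adjusted p of 0.196 by permutation. The list holds Otp, which is also among the genes most like Meg3. The study lists Otp, Rax and Sox1 as lower in the mutant and shows Foxb1 and Sim1 downregulated in it at a later stage. A response of such genes to the mutation and a change of tissue composition cannot be told apart with this list. The part of tissue composition in the difference between KO and WT was not tested.

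For notochord markers, of which Noto and Foxj1 were measured and both were dim, r with Meg3 was 0.25 in KO replicates 1 to 10 (permutation p = 0.477) and -0.91 in WT (permutation p = 0.0001, adjusted p = 0.0021, rho = -0.84), and without the 2 farthest arrays it was -0.76 in WT. With Dlk1 it was 0.47 in KO replicates 1 to 10 and -0.77 in WT (permutation p = 0.0062, adjusted p = 0.0434), where rho was -0.55 with an adjusted p of 0.217 by permutation. Whether the correlations differ between the sets was not tested. The list averaged 0.11 to 0.53 from its WT mean in KO replicates 11 to 13, 0.09 to 0.42 in KO replicates 1 to 10 and -0.22 to 0.37 in WT. For neurons, blood, endothelium, mesenchyme and neural crest, macrophages, surface ectoderm and muscle, no correlation with Meg3 or Dlk1 had an adjusted p below 0.05 in either set. Without the 2 arrays farthest from the median of Meg3, r in WT rose from 0.44 to 0.83 for neurons and from 0.56 to 0.85 for macrophages. The others of these lists then lay between -0.53 and 0.58. Dlk1 with mesenchyme and neural crest had r = 0.72 in KO replicates 1 to 10, and 0.13 without the 2 arrays farthest from the median of Dlk1. No gene of these 7 lists was called, but the signs of the differences ran by list. All 6 measured neuronal genes were below 0, with a median of -0.17. All 5 erythroid genes (median 0.27), 6 endothelial genes (0.17), 8 genes of mesenchyme and neural crest (0.16) and 5 of surface ectoderm (0.22) were above 0, as were 4 of 5 macrophage genes (0.08) and 3 of 4 muscle genes (0.09). The part of these cell types in the lower levels of the domain in KO was not tested.

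Other imprinted genes, chosen from textbook knowledge and with earlier results known, included the nearest parallel to the domain. Of 40 listed, 34 were measured. Most of these were at or above the median level of all clusters, where 8645 of 14470 clusters had differences below 0. The median difference of the 34 was -0.05, with 25 below 0, beside 48.2% of all clusters. None was called, while 7 were lower and 0 higher at an unadjusted p below 0.05, beside 4.15% and 6.2% of all clusters. The 3 with the smallest p came from 1 paternally expressed cluster. Magel2, whose protein acts in endosomal protein recycling, read 5.54 to 5.89 in KO replicates 11 to 13 and 6.18 to 6.85 in WT and differed by -0.78 ± 0.17. Ndn, which encodes necdin, a protein that restrains cell division in neurons, read 8.93 to 9.17 in KO replicates 11 to 13 and 9.31 to 9.91 in WT and differed by -0.51 ± 0.12. Mkrn3, a ubiquitin ligase gene, differed by -0.46 ± 0.15 and its ranges overlapped, with 5.18 as the highest of KO replicates 11 to 13 and 5.08 as the lowest in WT.

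Genes that set up or guard imprints had small differences. Of 26 measured, 20 had differences below 0, beside 48.2% of all clusters. Their median was -0.05, and 0 were called. Most were at or above the median level of all clusters, where 8645 of 14470 clusters had differences below 0. Zfp445 and Zfp57, zinc-finger factors that keep methylation at imprinted control regions, had the smallest p. Zfp445 read 7.82 to 7.96 in KO replicates 11 to 13 and 8.03 to 8.21 in WT, a difference of -0.23 ± 0.06 with no overlap. Zfp57 read 8.30 to 8.60 in KO replicates 11 to 13 and 8.41 to 9.01 in WT, a difference of -0.27 ± 0.10. Setdb1, a histone methyltransferase recruited by such factors, differed by -0.10 ± 0.05.

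Of 19 measured genes for microRNA and box C/D snoRNA processing, 13 had differences below 0, beside 48.2% of all clusters. Their median was -0.05, and 0 were called. All were at or above the median level of all clusters, where 8645 of 14470 clusters had differences below 0. Dgcr8, which binds primary microRNA transcripts for cutting by Drosha, read 7.69 to 7.87 in KO replicates 11 to 13 and 7.82 to 8.21 in WT, a difference of -0.26 ± 0.08. Prkra, a partner of Dicer, differed by -0.12 ± 0.06, and Lin28b, which blocks let-7 maturation, by -0.23 ± 0.16.

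For pathways linked to the protein-coding members, 0 genes were called. Of 14 measured thyroid hormone genes, with a median of -0.04, 1 was lower and 1 higher at an unadjusted p below 0.05, beside 4.15% and 6.2% of all clusters. These were Med1, a coactivator subunit, at -0.13 ± 0.05 and Slco1c1, a thyroxine transporter whose cluster was below the median level, at 0.28 ± 0.11. Klf9, a target of the hormone receptor, differed by -0.26 ± 0.13. Of 20 measured Notch genes, with 10 below and 10 above 0, the ligand gene Dll4 differed by 0.33 ± 0.11, the target Hey1 by 0.25 ± 0.12 and the receptor gene Notch2 by 0.22 ± 0.11. Of 14 measured gag-like retroelement genes, with a median of -0.05, Rtl5 differed by -0.47 ± 0.17, Pnma2 by 0.08 ± 0.07 and Pnma5 by -0.08 ± 0.09.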

How the data were processed

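The authors deposited log2 values of 25 arrays made by RMA. The submitters' processing notes name R 2.7.0, the package affy and Affymetrix Expression Console 1.0. The annotation build is not given in the sources used here. In 11 of the deposited columns single values were misprinted, so these columns were treated as a score on the log2 scale in which 14 cells above 14 (0 of them in the domain) were set missing. After 6616 unannotated probe sets of 35556 were left out, 28940 clusters were tested. Of these, 21218 carried 1 symbol, and 99.9% of those were matched to RefSeq genes (GRCm38.p6), which gave names and gene order. Of the domain members, 1 was matched by symbol and not by Entrez number.

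In R 4.3.3, limma 3.58.1 was fitted to all clusters together, with terms for genotype and for KO replicates 1 to 10. Variances were moderated, p-values were two-sided and adjusted over all 28940 clusters by Benjamini-Hochberg, and clusters were called at an adjusted p below 0.05. Correlations over arrays had 100000 permutations. The number of arrays limits precision. P-values measure only the spread between these samples. Alternatives were genotype alone, a replicate block, other normalizations, filters, weights and variance models, and each array left out.

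The members and gene lists were chosen with earlier results of these data known. Named were all protein-coding and long non-coding members, Mir323 and Mir300, the 6 largest microRNA or snoRNA differences, members whose KO replicates 11 to 13 lay outside the WT range, 5 neighbours on either side, the 3 smallest p of each list and the 5 genes most like Meg3. Other members were named after their values were seen. Names, motifs and sequences came from RefSeq tables. Python 3.11.15 with matplotlib 3.10.9 was used for the plots.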

Additional observations from a re-analysis of the deposited data

How the results depend on the processing

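The median difference of the domain clusters stayed between -0.39 and -0.28 under all alternatives that kept the 42 clusters, and was -0.61 over the 17 left when clusters below the median level of all clusters were dropped. The number of domain clusters called lower was 0 in the reported fit, 29 with genotype as the only term, 3 when arrays were weighted, 2 when each array was centred on its median, and 0 to 5 on leaving out each array in turn. No alternative called a domain cluster higher. Adding the 7 shared clusters, chosen after seeing the data, left the count at 0. Replicate numbers did not pair the samples: over 12 pairs, same-numbered KO and WT arrays correlated at -0.335 to 0.428, 4 of them above 0.1, and 0 KO arrays correlated best with their own number. With the replicate block, 0 clusters were called, 37 of 42 were below 0, the median difference was -0.28, and the signs of Mir376c (0.03), Mir496a (0.0013), Mir409 (0.03), Mir412 (0.00028) and Dio3 (0.07) turned. On leaving out each array, the difference of Mir666 ran from -0.16 to 0.09, that of Mir376c from -0.02 to 0.02 and that of Mir299a from -0.18 to 0.00041.

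The median correlation between domain clusters in KO replicates 1 to 10 was 0.21 with arrays centred on their medians and 0.58 without members below the median level of all clusters, and in WT it was 0.67 without those members. It ran from 0.27 to 0.40 in KO replicates 1 to 10 and from 0.31 to 0.44 in WT on leaving out each array. Meg3 with Rian had a Spearman rho of 0.83 in KO replicates 1 to 10, which missed the threshold after adjustment, and r from 0.85 to 0.93 in KO replicates 1 to 10 and from 0.87 to 0.95 in WT without single arrays. Meg3 with Dlk1 passed the threshold when quantile normalization was repeated (0.74 in KO replicates 1 to 10 and 0.73 in WT) and without KO replicate 5 (0.77), WT replicate 11 (0.82) or WT replicate 12 (0.79), and ran from 0.64 to 0.78 and from 0.42 to 0.82 without single arrays. Meg3 with Dio3 ran from 0.29 to 0.77 in KO replicates 1 to 10 and from 0.04 to 0.56 in WT. Dlk1 with the mesenchyme and neural crest list in WT changed sign with Spearman correlation (0.01). The causes were not tested. Of the members, 25 were below the median level of all clusters, where differences can be understated.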
